A study of Oryzias latipes with 18 samples.

Results

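The genes that make steroid hormones were followed in the testis of medaka, Oryzias latipes, a small egg-laying fish, as the animals were held in water with or without PFOS. Members were the genes whose name is star, insl3, fshr or lhcgr, or begins with cyp11, cyp17, cyp19 or hsd3b, with a mean of at least 10 normalized reads over the 18 libraries. The names matched 11 genes, of which 9 reached that mean, out of 18792 genes tested and 22941 in the table. The 9 were star, cyp11a, cyp17, cyp17a2, cyp11b, fshr, lhcgr and 2 genes that are both named hsd3b7. Just below the limit stood cyp19a1a with a mean of 6.15 normalized reads and cyp19b with 5.38, and the lowest mean above it was 42.9 for lhcgr. The name insl3 matched no gene and is not analysed here.

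Bulk RNA of testes was sequenced from 6 groups of 3 biological replicates. The control lineage had no ancestral exposure, and the BPA lineage descended from fish exposed as embryos, 4 generations earlier, to the plasticizer bisphenol A at 10 µg/L. In each lineage, males received PFOS (perfluorooctane sulfonate, a persistent fluorinated surfactant) at 0, 0.002 or 0.02 mg/L for 21 days. Neither the age nor the strain of the fish is stated in the labels.

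Steroid hormones are made from cholesterol, which the star protein carries to the inner mitochondrial membrane. There the side-chain cleaving enzyme encoded by cyp11a makes pregnenolone. The cyp17 enzyme then adds a hydroxyl group at carbon 17 and cuts the side chain, which opens the way to androgens. The related teleost enzyme cyp17a2 carries out the hydroxylation but not the cut. In fish testes cyp11b leads on to 11-ketotestosterone, the main androgen of male teleosts, and the pituitary hormones FSH and LH control these steps through the receptors fshr and lhcgr. The aromatases cyp19a1a and cyp19b turn androgens into estrogens. In mammals hsd3b7 belongs to bile acid synthesis rather than to hormone synthesis.

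Libraries held 23.7 to 47.7 M reads. The library labelled control lineage, 0.002 mg/L, replicate 2 was kept apart from the main tests below. It entered the mean filter and the alternative fit to all 18 libraries. Its oocyte and ovary marker list summed to 625574 normalized reads, against at most 6210 in the other 17 libraries. In those 17, the Sertoli list summed to between 34040 and 69975 normalized reads and the germ cell list to between 52254 and 97928, and no gene of either list was at 0 in every library. In the unexposed control lineage, replicates 1 and 3 carried gut and kidney transcripts, with list sums of 41328 and 40455 normalized reads against at most 379 elsewhere, replicate 2 of that group included with 376. This list was lower without overlap in all 4 exposed groups than in their unexposed groups, in the BPA lineage at 89.1 to 107 and 101 to 156 normalized reads with rising dose against 207 to 379 at 0 mg/L, and its part in the results was not tested. Calls that involve the unexposed control group are given with both libraries and without them. The list for the interrenal gland, the other steroid-making tissue of fish, also holds genes of the chromaffin cells of the fish adrenal. It summed to between 456 and 1079 normalized reads in the 17 libraries. Of its genes, the enzyme gene cyp21a2 read between 0 and 15.5, mc2r between 79.6 and 431, and the chromaffin gene dbh between 188 and 566.

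The gene cyp17 (ENSORLG00000019226) read lower in every PFOS-exposed library than in any unexposed one, in both lineages. In the control lineage at 0 mg/L it read 9119, 12591 and 10982 normalized reads, a mean of 10897 ± 1738 (SD, n = 3). At 0.002 mg/L the replicates in the test read 5945 and 1341, while the library kept apart read 429. With 0.02 mg/L the values were 4228, 3381 and 4755, a mean of 4121 ± 693 (SD, n = 3). Every exposed library of this lineage therefore lay below every unexposed one. In the BPA lineage cyp17 read 10038, 8406 and 15696 normalized reads at 0 mg/L, a mean of 11380 ± 3826 (SD, n = 3). It read 5060, 6911 and 5498 at 0.002 mg/L, with a mean of 5823 ± 967 (SD, n = 3). With 0.02 mg/L it read 3246, 2469 and 2742, with a mean of 2819 ± 394 (SD, n = 3). Here the 3 doses did not overlap at all, and the highest dose held the lowest values. Group means descended from the BPA lineage at 0 mg/L through the control lineage at 0 mg/L, the BPA lineage at 0.002 mg/L, the control lineage at 0.02 mg/L and the control lineage at 0.002 mg/L to the BPA lineage at 0.02 mg/L. The 2 unexposed groups overlapped each other. The control lineage at 0.002 mg/L overlapped all 3 of the other exposed groups, which did not overlap among themselves. In bulk tissue fewer cells of a type and less RNA per cell cannot be told apart.

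**Figure D1:**
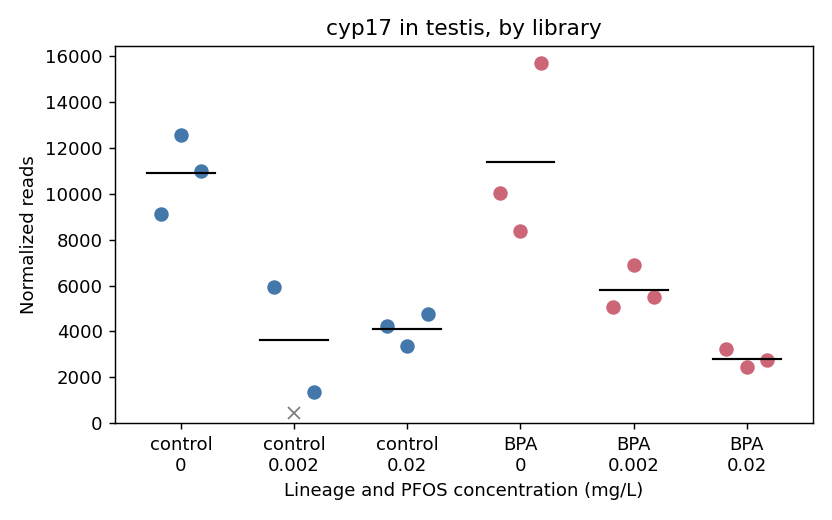
Normalized reads of cyp17 in each library (vertical axis, linear) by lineage and PFOS concentration in mg/L (horizontal axis). Points are libraries, bars are group means, blue is the control lineage, red is the BPA lineage, and the cross is the library kept apart, which enters no mean. All unexposed libraries read at least 8406, and no exposed library read more than 6911.

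Differences in log2(value + 1) were tested with limma, with Benjamini-Hochberg adjustment over all 18792 genes, and a gene is called where the adjusted p is under 0.05. In the control lineage cyp17 fell by 1.94 on the log2 scale at 0.002 mg/L (SE 0.42, adjusted p = 0.0291) and by 1.40 at 0.02 mg/L (SE 0.38, adjusted p = 0.0286). In the BPA lineage it fell by 1.97 at 0.02 mg/L (SE 0.38, adjusted p = 0.0450), to 24.8% of the unexposed mean in normalized reads. At 0.002 mg/L in that lineage the log2 difference was -0.93 (SE 0.38, adjusted p = 0.474) and did not pass. Averaged over the lineages, a comparison added after the data were seen, cyp17 fell by 1.69 at 0.02 mg/L (SE 0.27, adjusted p = 0.0180) and stood at -1.43 at 0.002 mg/L (SE 0.28, adjusted p = 0.0606). The step from 0.002 to 0.02 mg/L in the BPA lineage, also added after the data were seen, was -1.04 (SE 0.38, adjusted p = 1.0).

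The direction of cyp17 held in all 26 alternative analyses of each dose comparison, but the calls did not: 20 of 26 called it at 0.002 mg/L and 18 at 0.02 mg/L in the control lineage, and 10 at 0.02 mg/L in the BPA lineage. With the library kept apart put back, so that all 18 were fitted, the values at 0.02 mg/L did not pass (limma adjusted p = 0.231 in the control lineage, 0.427 in the BPA lineage and 0.428 averaged). Their log2 differences were the same as before, while the SE within a lineage rose from 0.38 to 0.59. At 0.002 mg/L in the control lineage, the group of that library, cyp17 was at -2.84 and passed (limma adjusted p = 0.0234). Without both libraries that carried gut and kidney transcripts, cyp17 was at -2.16 at 0.002 mg/L (adjusted p = 0.381) and at -1.63 at 0.02 mg/L (adjusted p = 0.271) in the control lineage, against the single library left at 0 mg/L, which is assumed to vary like the other groups. Averaged over the lineages it was then at -1.80 at 0.02 mg/L (limma adjusted p = 0.115), and the BPA-lineage difference of -1.97 at that dose had an adjusted p of 0.0831. Replicate 3 of the control lineage at 0.002 mg/L weighed most: without it the difference there was -0.86 (adjusted p = 0.403), and without replicate 1 it was -3.01 (adjusted p = 0.000751). The call there was also lost when either unexposed control library with gut and kidney transcripts, replicate 1 or 3, was left out (adjusted p = 0.106 and 0.0685). At 0.02 mg/L in the control lineage it was lost without any 1 of the 6 libraries compared (adjusted p from 0.0570 to 0.10). In the BPA lineage the call at 0.02 mg/L was lost without any unexposed library of either lineage, without replicates 2 or 3 at 0.002 mg/L, without replicate 2 at 0.02 mg/L, and without replicate 1 of the control fish at 0.02 mg/L (adjusted p from 0.0582 to 0.235). Averaged over the lineages it was lost without 5 of the 17 libraries (adjusted p from 0.0520 to 0.0672): replicates 2 and 3 of the BPA lineage at 0.02 mg/L, replicate 3 of that lineage at 0 mg/L, and in the control lineage replicate 1 at 0 mg/L and replicate 2 at 0.02 mg/L.

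Of the 9 members, cyp17 alone was lower without overlap in all 4 dose comparisons, a pattern held by 67 of the 18792 genes (0.357%). The others with this pattern included hsd11b1la of the pathway list below, the gut marker cdh17, actb, gapdh, kaznb, ripk4 and pygma. The gene cyp17 was also the only member whose doses were ordered without overlap in the BPA lineage, as were 81 genes (0.431%). By p-value it was number 29 of all genes at 0.02 mg/L in the BPA lineage and number 5 among those lower there. In the control lineage at the same dose, where many more genes were called, it was number 1212. These ranks are a description.

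The log2 difference between the lineages in cyp17 was 0.02 at 0 mg/L and -0.54 at 0.02 mg/L, and neither passed (limma, 95% intervals -0.78 to 0.82 and -1.34 to 0.26). At 0.002 mg/L the BPA lineage stood 1.03 above the control lineage (SE 0.42, adjusted p = 0.549), but this turned to -0.043 without replicate 3 of the control group. The interaction of lineage and PFOS, the direct test of whether the lineages responded differently, was 1.01 at 0.002 mg/L (95% interval -0.19 to 2.21, limma adjusted p = 0.291) and -0.57 at 0.02 mg/L (95% interval -1.70 to 0.57, adjusted p = 0.501). Both intervals include 0 and also values of more than 1 in size, so similar responses were not shown either.

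Neither gene at the start of the pathway was called in any comparison. The transporter gene star (ENSORLG00000012688) read 942, 1096 and 837 normalized reads in the control lineage at 0 mg/L, 1008 and 226 at 0.002 mg/L, then 942, 2052 and 820 at 0.02 mg/L. Values in the BPA lineage were 2429, 2752 and 1028 at 0 mg/L, 1652, 774 and 1487 at 0.002 mg/L, then 1120, 466 and 2853 at 0.02 mg/L. All dose groups overlapped their unexposed group, and the widest spread was within the BPA lineage at 0.02 mg/L. The gene cyp11a (ENSORLG00000007190) read 1783, 1693 and 1967 normalized reads in the control lineage at 0 mg/L, 1652 and 1004 at 0.002 mg/L, then 1812, 1224 and 1627 at 0.02 mg/L. Values in the BPA lineage were 2063, 1731 and 2513 at 0 mg/L, 1899, 1468 and 1479 at 0.002 mg/L, then 1222, 1117 and 2651 at 0.02 mg/L. Only the control lineage at 0.002 mg/L lay below its unexposed group in cyp11a.

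**Figure D2:**
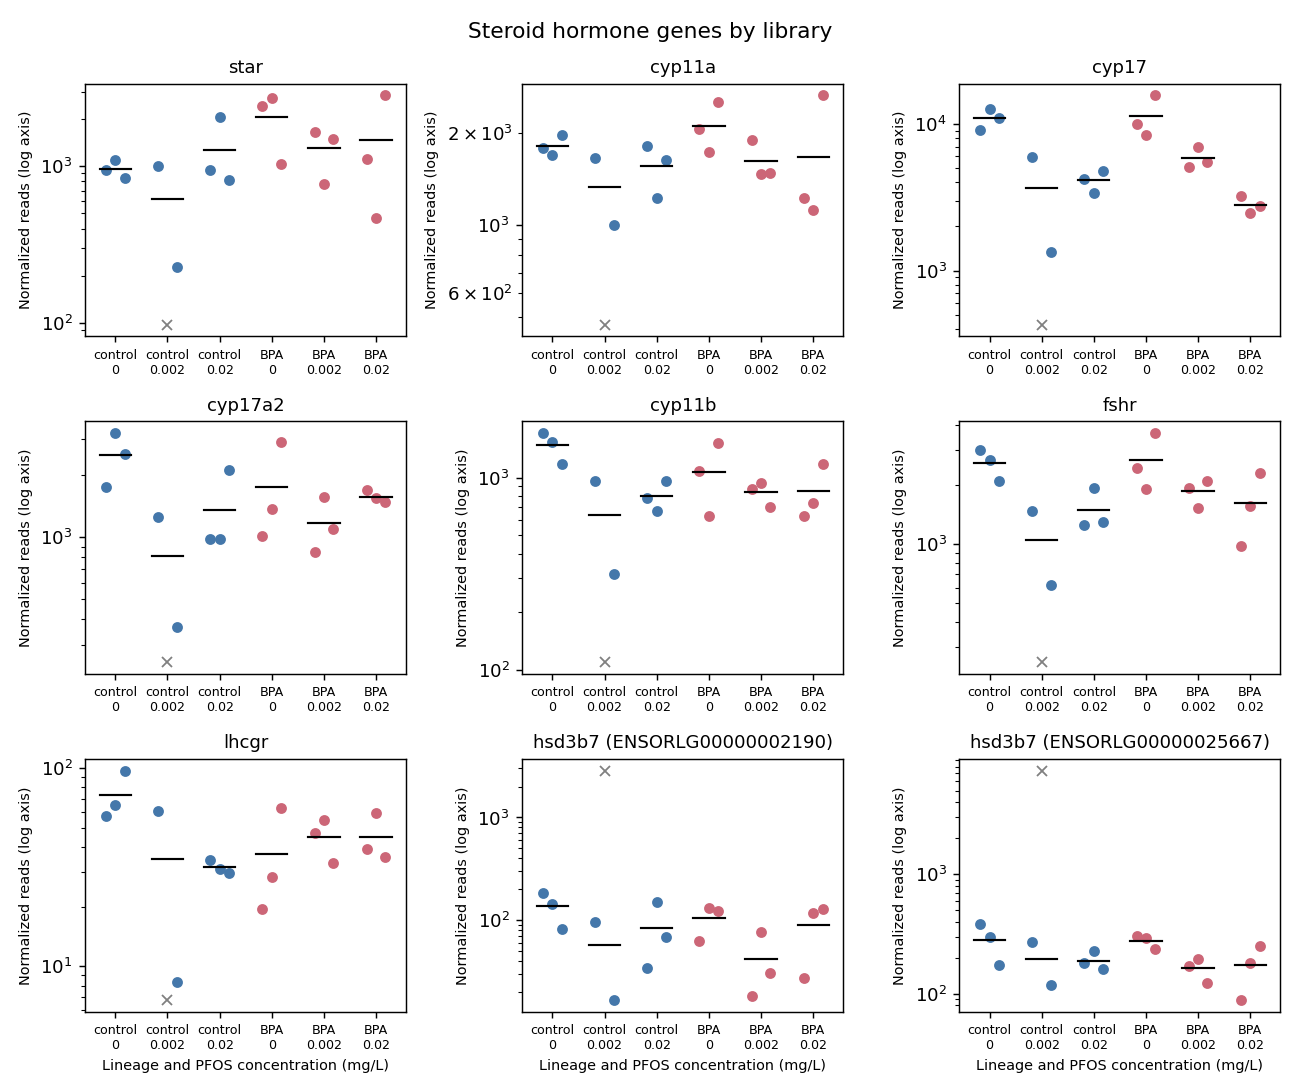
Normalized reads of each of the 9 steroid hormone genes by library, on log axes, against lineage and PFOS concentration in mg/L. Points are libraries, bars are group means, blue is the control lineage, red is the BPA lineage, and crosses mark the library kept apart. The cross is at the bottom of 7 panels and at the top of both hsd3b7 panels, where it reads 2856 and 7392.

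The second hydroxylase gene, cyp17a2 (ENSORLG00000002242), was called in the control lineage at the lower dose and in no comparison of the BPA lineage. It read 1754, 3214 and 2538 normalized reads in the control lineage at 0 mg/L, 1250 and 366 at 0.002 mg/L, then 984, 985 and 2116 at 0.02 mg/L. The BPA lineage gave 1013, 1369 and 2908 at 0 mg/L, 848, 1570 and 1097 at 0.002 mg/L, then 1690, 1551 and 1484 at 0.02 mg/L. The exposed control groups lay below the unexposed one at 0.002 mg/L and overlapped it at 0.02 mg/L, while the BPA groups overlapped at both doses. At 0.002 mg/L in the control lineage cyp17a2 fell by 1.84 on the log2 scale (SE 0.50, limma adjusted p = 0.0489), a call made in 7 of 26 alternatives. Without replicate 3 of that group the difference was -0.96 (adjusted p = 0.530), and without both libraries that carried gut and kidney transcripts it was -2.25 (adjusted p = 0.456). At 0.02 mg/L in the BPA lineage its 95% interval ran from -0.97 to 0.94, whereas that of cyp17 ran from -2.77 to -1.17. The difference between the genes was not tested.

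The gene cyp11b (ENSORLG00000010480), which acts downstream of cyp17, read 1709, 1536 and 1174 normalized reads in the control lineage at 0 mg/L, 957 and 317 at 0.002 mg/L, then 787, 668 and 958 at 0.02 mg/L. Both exposed control groups lay below the unexposed one. The log2 difference was -1.40 at 0.002 mg/L (SE 0.41, limma adjusted p = 0.0571) and -0.87 at 0.02 mg/L (SE 0.37, adjusted p = 0.115), and neither passed. The library put back in the fit to all 18, with its oocyte and ovary transcripts, read 109 normalized reads for cyp11b. The value at 0.002 mg/L passed in 6 of 26 alternatives, among them all 18 libraries, where it was -2.17 (limma adjusted p = 0.0360). It was -0.60 without replicate 3 of that group and -2.20 without replicate 1 (adjusted p = 0.604 and 0.0128). The BPA lineage gave 1076, 628 and 1519 at 0 mg/L, 869, 940 and 706 at 0.002 mg/L, then 634, 741 and 1173 at 0.02 mg/L, all overlapping.

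The FSH receptor gene fshr (ENSORLG00000010178) was called in the control lineage at the lower dose. It read 2985, 2672 and 2076 normalized reads in the control lineage at 0 mg/L, 1470 and 621 at 0.002 mg/L, then 1249, 1911 and 1288 at 0.02 mg/L, so that neither exposed group overlapped the unexposed one. It fell by 1.41 on the log2 scale at 0.002 mg/L (SE 0.38, limma adjusted p = 0.0452, called in 12 of 26 alternatives) and stood at -0.81 at 0.02 mg/L (SE 0.34, adjusted p = 0.112). Without replicate 3 at 0.002 mg/L the first of these was -0.79 (adjusted p = 0.515), and without the gut and kidney pair it was -1.48 (adjusted p = 0.488). The BPA lineage gave 2438, 1905 and 3655 at 0 mg/L, 1925, 1518 and 2092 at 0.002 mg/L, then 979, 1559 and 2275 at 0.02 mg/L. Those groups overlapped, with a log2 difference of -0.76 at 0.02 mg/L (SE 0.34, adjusted p = 0.242). Between the lineages at 0.002 mg/L the difference was 0.94 (SE 0.38, adjusted p = 0.540), and it ran from 0.31 to 1.56 with 1 library left out, lowest without replicate 3 of the control group and highest without its replicate 1.

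The LH receptor gene lhcgr (ENSORLG00000010892) had few reads. It read 57.3, 65.6 and 97.3 normalized reads in the control lineage at 0 mg/L, 61.2 and 8.37 at 0.002 mg/L, then 34.3, 31.1 and 29.5 at 0.02 mg/L, with no overlap between 0.02 and 0 mg/L. The BPA lineage gave 19.4, 28.2 and 63.2 at 0 mg/L, 47.2, 54.8 and 33.2 at 0.002 mg/L, then 39.2, 59.6 and 35.5 at 0.02 mg/L, where all groups overlapped. The log2 difference at 0.002 mg/L in the control lineage was -1.59 (SE 0.65, limma adjusted p = 0.137), but it was -0.22 without replicate 3 of that group and -2.95 without replicate 1 (adjusted p = 0.904 and 0.0222). The interaction at 0.002 mg/L was 2.01 (SE 0.87, adjusted p = 0.178) and rested on replicate 3 of the control group: it was 0.65 without that library and 3.38 without replicate 1 (adjusted p = 0.736 and 0.0406).

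The genes named hsd3b7 may share reads, so their split is uncertain. ENSORLG00000002190 ranged from 16.7 to 183 normalized reads over the 17 libraries and ENSORLG00000025667 from 88.7 to 382, and neither was called in any comparison. ENSORLG00000025667 read 304, 293 and 236 normalized reads in the BPA lineage at 0 mg/L, against 172, 195 and 124 at 0.002 mg/L, with no overlap. Of all genes, 11.3% were lower without overlap in that comparison. In the other dose comparisons ENSORLG00000025667 overlapped, and ENSORLG00000002190 did so in all of them. Outside the name rule stood a gene listed as 3bhsd (ENSORLG00000008590), named here after its values were seen. RefSeq's medaka gene table for assembly ASM223467v1 gives HSD3B1 as a synonym of that symbol. In humans HSD3B1 is a dehydrogenase of steroid hormone synthesis. The medaka gene read 1153, 1114 and 1247 normalized reads in the control lineage at 0 mg/L, 743 and 142 at 0.002 mg/L, then 496, 558 and 960 at 0.02 mg/L, all exposed values below the unexposed ones. The BPA lineage gave 1354, 693 and 1781 at 0 mg/L, 641, 793 and 952 at 0.002 mg/L, then 578, 444 and 1277 at 0.02 mg/L, with overlap. It was not called in the fit to 17 libraries, where the log2 difference at 0.002 mg/L in the control lineage was -1.84 (SE 0.57, limma adjusted p = 0.0704). With all 18 libraries that difference was -2.22 and passed (adjusted p = 0.0359). The library put back there, with its oocyte and ovary transcripts, read 147 normalized reads for 3bhsd. The aromatase genes were near the limit of detection: cyp19a1a read between 0 and 17.2 normalized reads in the 17 libraries.

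Counted together, 3 of 9 members were called lower at 0.002 mg/L in the control lineage (cyp17, fshr and cyp17a2), where 4.59% of all genes were called and 2.74% were called lower. At 0.02 mg/L in that lineage 1 of 9 was called, cyp17, against 12.8% of all genes, or 6.67% in the lower direction. In the BPA lineage 0 of 9 were called at 0.002 mg/L by limma, edgeR or DESeq2, where limma called 0% of all genes and 1 member had an unadjusted p under 0.05. The higher dose called 1 of 9, again cyp17, against 0.41% of all genes and 0.0532% in the lower direction. Averaged over the lineages, 0 of 9 were called at 0.002 mg/L by limma, against 0.016% of all genes, each of them lower (0.016%), and 3 were called by DESeq2. In that comparison 6 members had an unadjusted limma p under 0.05: cyp17, fshr, cyp17a2, cyp11b and both hsd3b7 genes. At the higher dose the average over the lineages called 1 of 9, cyp17, against 0.154% of all genes and 0.0905% in the lower direction. There 4 members had an unadjusted limma p under 0.05: cyp17, fshr, cyp11b and the hsd3b7 gene ENSORLG00000025667. The step between doses in the BPA lineage called 0 of 9 by limma, edgeR or DESeq2, with 1 member at an unadjusted p under 0.05 and 0% of all genes called. No member was called higher in any of these comparisons. Over the dose comparisons within a lineage, in the order given, the log2 differences were negative for 9, 8, 8 and 8 of the 9 members, with medians of -1.41, -0.86, -0.49 and -0.44, while the medians of all genes were 0.01, 0.03, -0.05 and -0.06. The comparisons within a lineage share their unexposed libraries, so these counts are not independent of each other. Counts at an unadjusted p under 0.05 or by DESeq2, here and below, stand without the share of all genes. No excess is read from them.

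**Figure D3:**
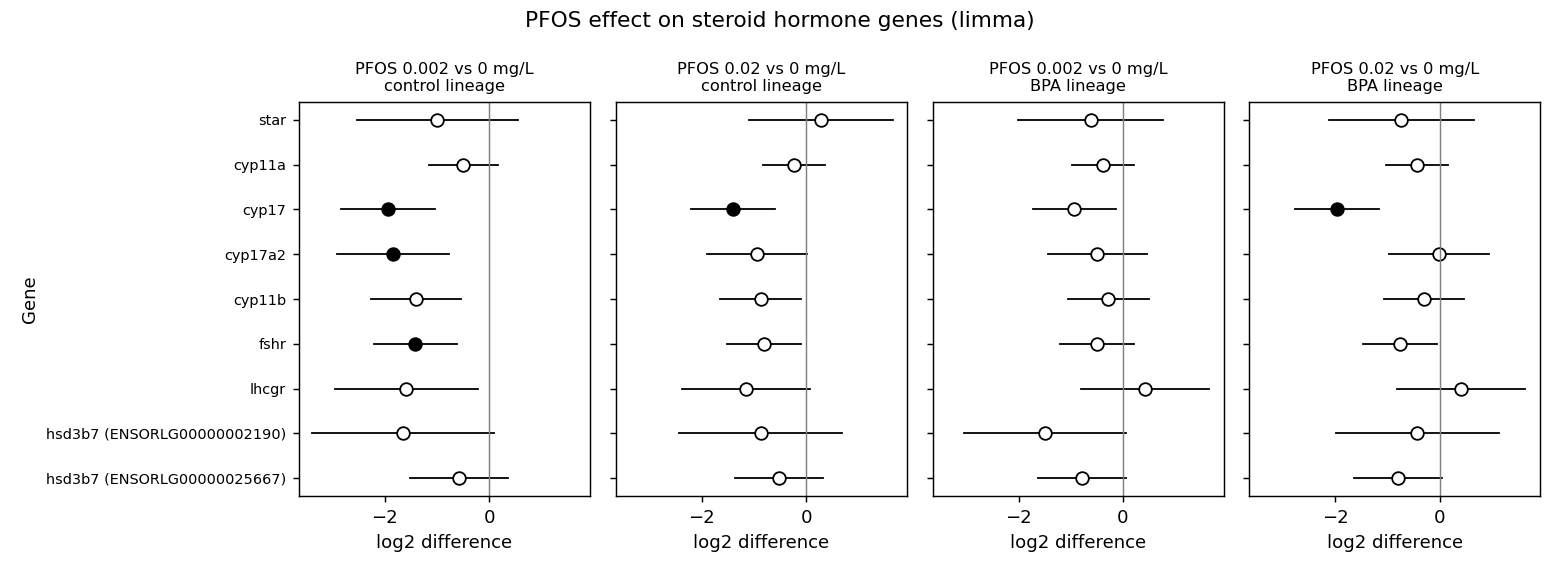
Log2 difference of each member between a PFOS dose and 0 mg/L (horizontal axis) with its 95% interval, in 4 panels for the 2 doses in the 2 lineages. Filled points passed the limma test at an adjusted p under 0.05: cyp17, cyp17a2 and fshr at 0.002 mg/L in the control lineage, and cyp17 alone at 0.02 mg/L in each lineage. Points left of the vertical line at 0 were lower under PFOS.

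Members lower without overlap numbered 5 of 9 at 0.002 mg/L in the control lineage, where 23.3% of all genes were, and 4 of 9 at 0.02 mg/L, where 17.2% were. The BPA lineage had 2 of 9 at 0.002 mg/L, against 11.3%, and 1 of 9 at 0.02 mg/L, against 10.3%. Between the lineages 0 of 9 members were called by limma, edgeR or DESeq2 at 0 mg/L (10.3% of all genes by limma), at 0.002 mg/L (0%), at 0.02 mg/L (0.0213%) and averaged over doses (0.0479%). The number with an unadjusted limma p under 0.05 was 2 at 0.002 mg/L, fshr and cyp17, and 0 in the other 3. The interaction called 0 of 9 at 0.002 mg/L (0.899% of all genes) and 0 of 9 at 0.02 mg/L (14.2%) by each tool, with 1 and 0 members at an unadjusted p under 0.05.

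Replicate 3 of the control lineage at 0.002 mg/L was low in every member. Relative to the mean at 0 mg/L it held 12.3% for cyp17, 14.6% for cyp17a2, 24.1% for fshr, 23.6% for star and 55.4% for cyp11a. Its Leydig list summed to 30.4% and its Sertoli list to 54.9% of that mean, while its germ cell list stood at 158%. Replicate 1 of the same group held 54.6% for cyp17, 105% for star, 91.1% for cyp11a and 81.1% for the Leydig list. The part of cell makeup in these results was not tested.

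The Leydig marker list, which holds no member (7 of 11 names found, as 8 genes, none of them at 0 in every library), summed to between 1494 and 1514 normalized reads in the control lineage at 0 mg/L, to 1219 and 457 at 0.002 mg/L and to between 928 and 1235 at 0.02 mg/L. In the BPA lineage it summed to between 2342 and 2765 at 0 mg/L, between 1081 and 1608 at 0.002 mg/L and between 907 and 2147 at 0.02 mg/L. No exposed group overlapped its unexposed group in this sum, which was not tested. Between 44.7% and 81.7% of it came from hsd11b2, hsd17b3 and both genes named nr5a1, which the pathway list also holds. The 4 markers outside that list, pdgfra, nr2f2, vcam1b and tcf21, were summed apart after the data were seen. They summed to between 415 and 581 normalized reads in the control lineage at 0 mg/L, to 224 and 151 at 0.002 mg/L and to between 446 and 477 at 0.02 mg/L. The BPA lineage gave 456 to 623 at 0 mg/L, 331 to 492 at the lower dose and 487 to 537 at the higher one. Without the enzyme and nr5a1 genes, only the control lineage at 0.002 mg/L lay below its unexposed group, and the other 3 exposed groups overlapped theirs. The largest part of this sum was pdgfra. At 0.02 mg/L in the control lineage pdgfra read 329 to 372 normalized reads, against 165 to 364 at 0 mg/L. There nr2f2 was lower without overlap, at 16.2 to 44.1 against 70.4 to 125, while vcam1b and tcf21 overlapped. The Sertoli list summed to between 53706 and 69975 normalized reads in the control lineage at 0 mg/L. At 0.002 mg/L it summed to 34040 and 53177, both below that, and at 0.02 mg/L it overlapped, as it did at both doses in the BPA lineage. Single genes of the list differed from its sum. At 0.02 mg/L in the control lineage cldn11a read 347 to 714 normalized reads, against 2402 to 3347 at 0 mg/L. There amh (ENSORLG00000015951) read 5822 to 13886 against 16751 to 28349, and inha, dhh and gata4 were also lower without overlap. The genes gsdf, dmy, sox9, aqp1a.1 and the second amh gene overlapped. In the BPA lineage the first amh gene rose without overlap, to 17149 to 23423 at 0.02 mg/L against 7024 to 8386. The germ cell list was higher without overlap in the exposed control lineage, at 77371 to 97928 normalized reads against 52254 to 68494, and overlapped in the BPA lineage. The oocyte and ovary list was also higher without overlap in the exposed control lineage, at 472 and 627 normalized reads with 0.002 mg/L and 826 to 6210 with 0.02 mg/L, against 305 to 405 at 0 mg/L. Sums of the leukocyte list and of the interrenal and chromaffin list overlapped between 0 and 0.02 mg/L in both lineages. The part of these lists in the values of the members was not tested.

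**Figure D4:**
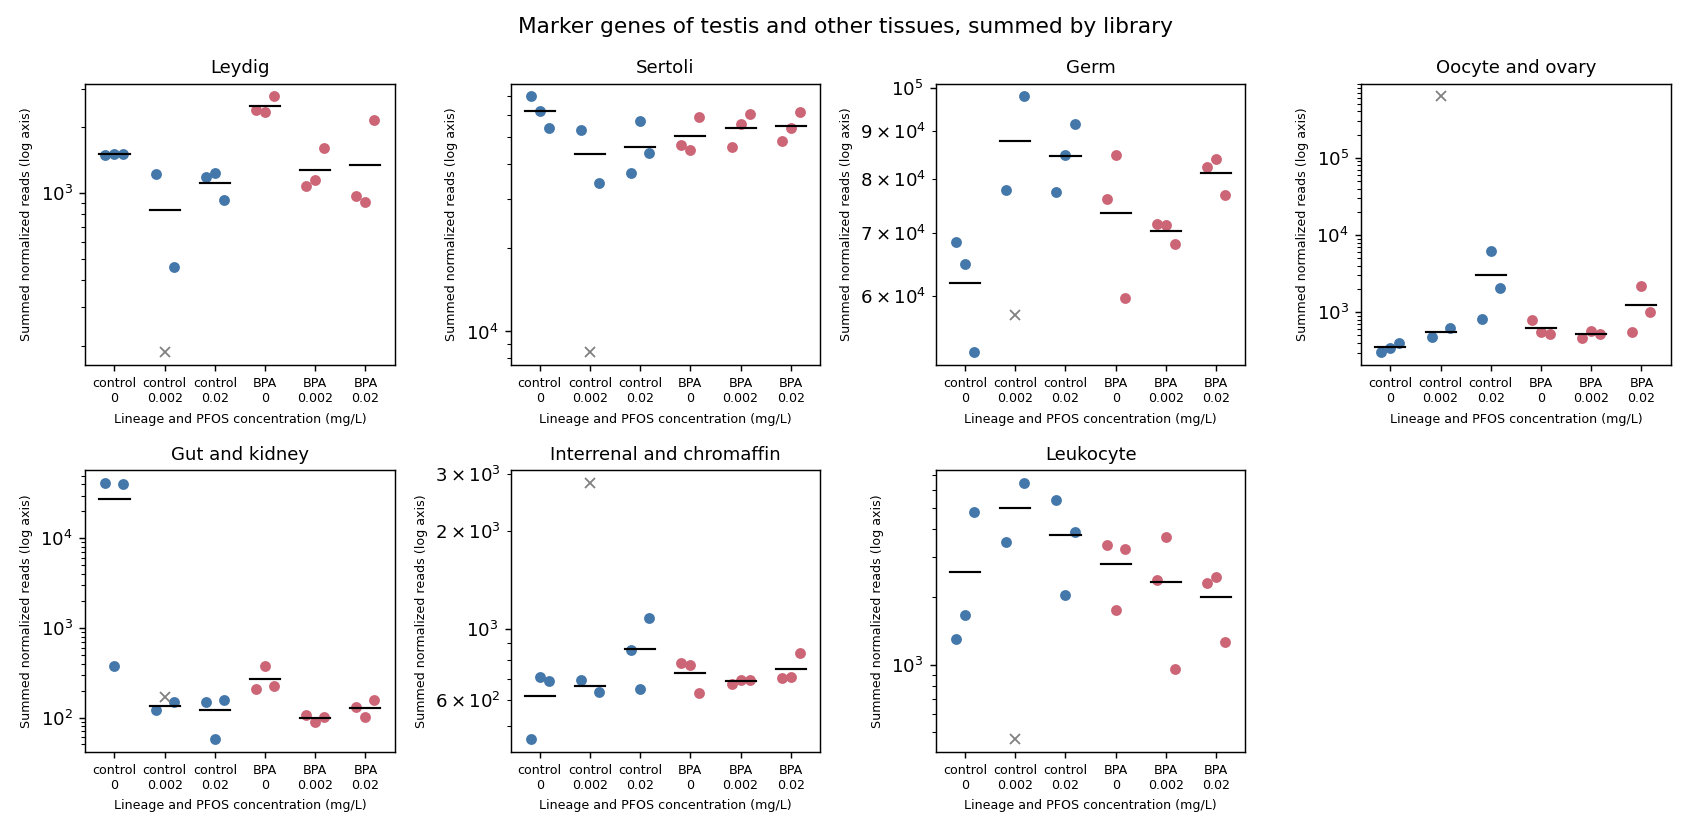
Summed normalized reads of 7 marker lists by library, on log axes, against lineage and PFOS concentration in mg/L, with points for libraries, bars for group means (blue control lineage, red BPA lineage) and crosses for the library kept apart. The Leydig sums were highest in the unexposed BPA lineage, at 2342 to 2765, and 2 unexposed control libraries stood out in the gut and kidney panel, at 41328 and 40455.

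Taken as a ratio to cyp11a in the same library, cyp17 was lower in every exposed group. The size of such a ratio depends on gene length and is read here only between libraries. The ratio of cyp17 to cyp11a was 5.12, 7.44 and 5.58 in the control lineage at 0 mg/L, 3.60 and 1.34 at 0.002 mg/L, then 2.33, 2.76 and 2.92 at 0.02 mg/L. The BPA lineage had ratios of 4.87, 4.85 and 6.25 at 0 mg/L, 2.67, 4.71 and 3.72 at 0.002 mg/L, then 2.66, 2.21 and 1.03 at 0.02 mg/L. No exposed group overlapped its unexposed group in this ratio. None of the other ratios below separated every exposed group. The ratio of cyp17 to cyp17a2 separated the BPA lineage at 0.02 mg/L, with 1.59 to 1.92 against 5.40 to 9.91 at 0 mg/L, but overlapped in the control lineage at both doses. The ratio of cyp17 to fshr overlapped in the control lineage at both doses and in the BPA lineage at 0.002 mg/L, with 2.63 to 4.55. It separated 0.02 mg/L in the BPA lineage, at 1.21 to 3.32 against 4.12 to 4.41 at 0 mg/L. The ratio of cyp17 to 3bhsd overlapped at both doses in the control lineage and at 0.002 mg/L in the BPA lineage, and was 2.15 to 5.62 at 0.02 mg/L there against 7.41 to 12.1 at 0 mg/L. The ratio of cyp17 to cyp11b overlapped at both doses in the control lineage and at neither dose in the BPA lineage, where it was 5.82 to 7.78 at 0.002 mg/L and 2.34 to 5.12 at 0.02 mg/L against 9.33 to 13.4 at 0 mg/L. The ratio of cyp17 to star was 9.68 to 13.1 in the control lineage at 0 mg/L, against 5.90 and 5.93 at 0.002 mg/L and 1.65 to 5.80 at 0.02 mg/L, without overlap. In the BPA lineage it overlapped at both doses, with 3.05 to 15.3 at 0 mg/L. No test was run on these ratios. They reuse the cyp17 values given above, so their separation is not an independent result.

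**Figure D5:**
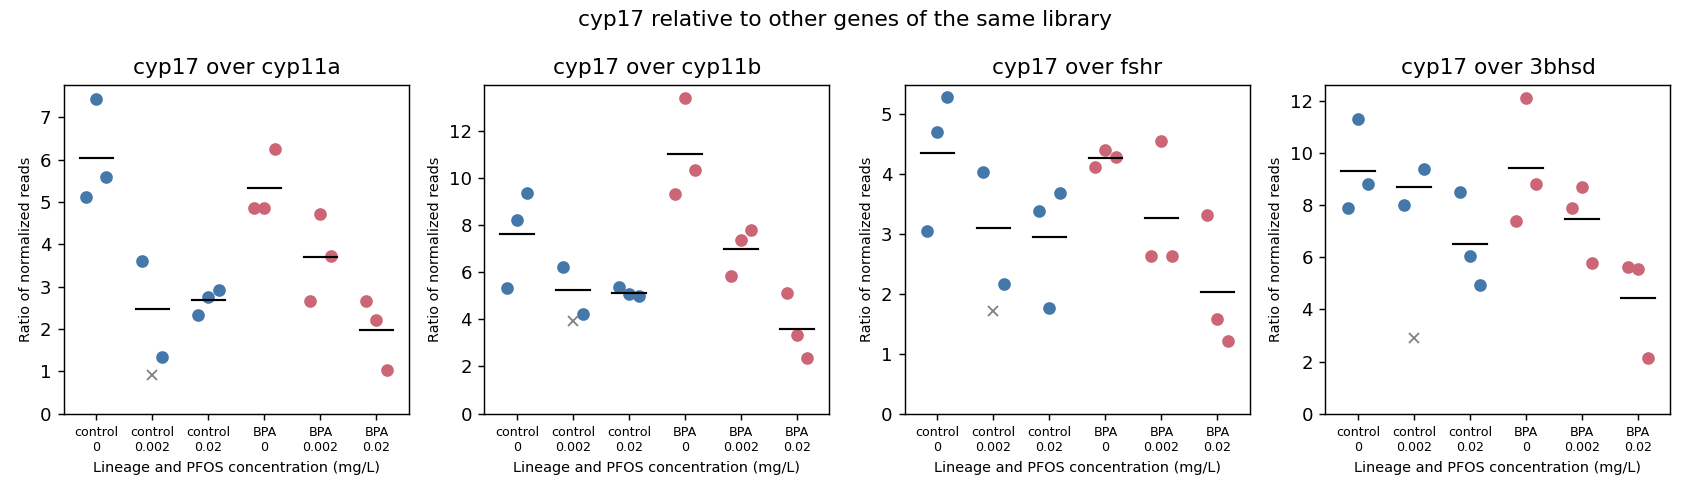
Ratio of cyp17 to cyp11a, cyp11b, fshr and 3bhsd (normalized reads over normalized reads, linear axes from 0) in each library, by lineage and PFOS concentration in mg/L. Points are libraries, bars are group means, blue is the control lineage, red is the BPA lineage, and crosses mark the library kept apart. The cyp11a panel separates all exposed from all unexposed libraries of the same lineage: every unexposed library is at 4.85 or above.

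Other genes of the pathway came from a list of 57 names, of which 37 were in the table as 39 genes. The mean filter used all 18 libraries, and cyp21a2 read 146 in the library kept apart against a median of 4.58 in the other 17. The genes tested numbered 35, with cyp21a2 included at its mean of 13.3. In the control lineage 1 was called higher and 1 lower at 0.002 mg/L, against 4.59% of all genes called and 2.74% called lower. At 0.02 mg/L in that lineage, 2 were called higher and 5 lower, against 12.8% of all genes called and 6.67% called lower. In the BPA lineage 0 were called at either dose (0% and 0.41% of all genes), where 4 and 7 had an unadjusted p under 0.05 and edgeR and DESeq2 also called 0. POR, the reductase that passes electrons to microsomal P450 enzymes such as cyp17, read 1097, 768 and 740 normalized reads in the control lineage at 0 mg/L, against 553, 526 and 400 at 0.02 mg/L, and fell by 0.81 on the log2 scale (SE 0.24, limma adjusted p = 0.0390). The BPA lineage gave 401, 363 and 612 at 0 mg/L, against 714, 694 and 515 at 0.02 mg/L. POR was lower in the BPA than in the control lineage at 0 mg/L, by -0.93 (SE 0.24, adjusted p = 0.0236), and the interaction at 0.02 mg/L was 1.31 (SE 0.34, adjusted p = 0.0185). Without the gut and kidney pair these 3 values were -0.65, -0.78 and 1.16 (limma adjusted p = 0.395, 0.353 and 0.142). With all 18 libraries fitted, 4 of the 35 genes were called at 0.002 mg/L in the control lineage. They were gata6, nr5a1 and AKR1D1, each lower, and npc1, which was higher. The library put back, with its oocyte and ovary transcripts, read 58.1, 17.6, 68.9 and 2161 normalized reads for these genes in turn. In that fit 0 were called in the other comparisons of dose, lineage and interaction. The share of all genes called in that fit is not given here, and no excess is read from the count.

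Also lower at 0.02 mg/L in the control lineage were gata4, a transcription factor of gonadal somatic cells, by -1.52 (SE 0.39, limma adjusted p = 0.0251), and its relative gata6 by -1.26 (SE 0.38, adjusted p = 0.0404). The dehydrogenase-like gene hsd11b1la was lower by -1.45 (SE 0.39, adjusted p = 0.0272). Cytochrome b5, cyb5a, which assists the side-chain cut of CYP17A1 in mammals, was lower by -1.06 (SE 0.32, adjusted p = 0.0424), but it read 3360, 905 and 1289 normalized reads at 0 mg/L, with the highest value in a library that carried gut and kidney transcripts. Without both such libraries the cyb5a difference was -0.26 (adjusted p = 0.675), and none of the 35 genes was called in any of these comparisons in that fit. There gata4 was at -1.59, gata6 at -0.88 and hsd11b1la at -1.31 (adjusted p = 0.267, 0.467 and 0.334). The cholesterol transporters of the lysosome, npc1 and npc2, rose by 0.56 (SE 0.16, adjusted p = 0.0334) and 0.71 (SE 0.22, adjusted p = 0.0433). At 0.002 mg/L the called genes were npc1, higher by 0.72 (SE 0.18, adjusted p = 0.0376), and gata6, lower by -1.79 (SE 0.42, adjusted p = 0.0330). Without the pair npc1 was at 0.48 and npc2 at 0.84 at 0.02 mg/L (limma adjusted p = 0.373 and 0.284), and at 0.002 mg/L npc1 was at 0.64 and gata6 at -1.41 (adjusted p = 0.488 and 0.489).

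Enzymes and a regulator named as background levels did not pass in the fit to 17 libraries. The gene hsd17b3, whose product makes testosterone in mammals, averaged 475 ± 19.4 normalized reads in the control lineage at 0 mg/L and 219 ± 105 at 0.02 mg/L (SD, n = 3 each). Its BPA-lineage means were 1068 ± 267 at 0 mg/L and 426 ± 337 at 0.002 mg/L (SD, n = 3 each). At 0.02 mg/L the mean there was 285 ± 251 (SD, n = 3). Every exposed library of that lineage lay below the lowest at 0 mg/L, 866. The highest read 805 at 0.002 mg/L and 574 at 0.02 mg/L. In the control lineage hsd17b3 was lower without overlap at 0.02 mg/L, at 108 to 316 against 461 to 497. It overlapped there at 0.002 mg/L. Of all genes, 11.3% and 10.3% in the BPA lineage and 17.2% in the control lineage were lower without overlap at these doses. The log2 difference of hsd17b3 at 0.02 mg/L in the BPA lineage was -2.22 (SE 0.68, limma adjusted p = 0.120). The gene hsd11b2, whose product acts on 11-oxygenated steroids, read 803, 772 and 633 normalized reads in the BPA lineage at 0 mg/L, against 318, 404 and 211 at 0.002 mg/L, with a log2 difference of -1.28 (SE 0.45, adjusted p = 0.443). At 0.02 mg/L in that lineage hsd11b2 read 267, 191 and 887, with overlap, and in the control lineage it overlapped at both doses. The gene nr5a1, a nuclear receptor that drives steroid enzyme genes, read 224, 141 and 165 normalized reads in the control lineage at 0 mg/L, against 70.5, 104 and 90.7 at 0.02 mg/L, with a log2 difference of -0.98 (SE 0.43, adjusted p = 0.132). In the control lineage at 0.002 mg/L nr5a1 read 111 and 38.5, with a log2 difference of -1.39 (SE 0.48, limma adjusted p = 0.0896). With all 18 libraries fitted that difference was -2.01 and passed (limma adjusted p = 0.0422). The library put back there, with its oocyte and ovary transcripts, read 17.6 normalized reads for nr5a1. In the BPA lineage nr5a1 overlapped at both doses. The fdx1 genes are not analysed here.

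Over the 17 libraries, the member whose log2 values were most like those of cyp17 was fshr, with Pearson r of 0.77. The closest pair of members was fshr and cyp11b with r of 0.83. The gene 3bhsd, outside the name rule, was closer, with r of 0.80 to cyp17, 0.88 to cyp11b and 0.85 to fshr. The least well matched member was star, whose closest partner was cyp11a with r of 0.58. Among 11404 named genes with a mean of at least 50 normalized reads, those most like cyp17 were bcar1 (r = 0.887), kaznb (0.884), ripk4 (0.884), ela2l (0.878) and pygma (0.868). Those most like cyp17a2 were ptch1 (0.852), tnika (0.847), smad6b (0.830), f10 (0.826) and fzd8b (0.819), and those most like star were prlrb (0.885), rgs3a (0.878), fam43a (0.871), lhx9 (0.828) and TENT5A (0.822). No gene was in 2 of these 3 lists. The libraries share groups, doses and size factors, so these correlations describe the 17 libraries and carry no test.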

How the data were processed

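The deposited table holds, for 18 libraries of medaka testis, signal values from the authors that, by their spacing, are gene read counts divided by a size factor per library. Per the submitters' processing notes, the tools were fastp 0.23.2, STAR 2.7.7a and DESeq2 1.34.0. Per the labels' protocols, a Zymo Quick RNA/DNA kit gave the RNA and a NEBNext Ultra II kit the libraries. Build, annotation, counter and strandedness are not given in the labels, so values of overlapping, antisense and paralogous genes are uncertain. No sequence is shown. Divided by the step of their library, 100% of values came out whole within a tolerance of 0.01. The reads recovered in this way gave the depths of 23.7 to 47.7 M reads and went into the count-based alternatives. Columns that matched no sample numbered 0.

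The main test was limma 3.58.1 (R 4.3.3) on log2(value + 1), with a mean for each of 6 groups over 17 libraries, with trend and robust moderation, for the 18792 genes with a mean of at least 10. A difference on this scale understates the change of low genes. Tests were two-sided, with Benjamini-Hochberg adjustment over all genes of a comparison, a threshold of 0.05 and 95% intervals. The p-values measure the spread between the biological replicates as labelled. The procedure was tested on simulated data in which no library carried more of another tissue than the rest. That test does not bear on the libraries with gut, kidney or oocyte transcripts, and its outcome is not given here. Every member is named. Outside the comparisons added after the data were seen, the log2 difference, SE and adjusted p of a member are printed where its unadjusted p was under 0.05. In the added comparisons they are printed for cyp17 alone, and the other members under 0.05 are only named. Further values are given as levels, intervals and counts. From the pathway list, called genes are named (at most 5 per comparison by p), and cyb5a and npc2, which fell outside that limit at 0.02 mg/L in the control lineage, were named after their values were seen. The genes most like a member were the 5 with the highest Pearson r. The members, the lists, the library kept apart and the tests were chosen with earlier results of these data known.

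Alternatives were all 18 libraries, a pseudocount of 5, no filter, TMM scaling, the compared groups alone, a replicate block, both edgeR 4.0.16 and DESeq2 1.42.0 run on whole reads, and each of the 17 libraries left out. Added after the data were seen were a fit without both libraries that carried gut and kidney transcripts, the PFOS effects averaged over lineages, the step between doses in the BPA lineage, the split of the Leydig list, and the gene 3bhsd. Figures were drawn with matplotlib 3.10.9.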

Additional observations from a re-analysis of the deposited data

Results flagged for a closer look

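The library labelled control lineage, 0.002 mg/L, replicate 2, which entered no comparison of the main fit, held far more reads of both genes named hsd3b7 than any other library. ENSORLG00000002190 read 2856 normalized reads in it, against at most 183 in the other 17 libraries. ENSORLG00000025667 read 7392 normalized reads, against at most 382. The other members were at the bottom of their range there: cyp17 read 429, star 97.2, fshr 251 and cyp11b 109 normalized reads, each below the lowest of the other 17. The same library had an oocyte and ovary list sum of 625574 normalized reads. The part of that tissue in the hsd3b7 values was not tested.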

How the results depend on the processing

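The number of the 9 members called was 3 at 0.002 mg/L in the control lineage. It was 0 in a fit to the compared groups alone, 1 with the replicate block, 0 by edgeR, 4 by DESeq2, 4 with all 18 libraries, 0 without both libraries that carried gut and kidney transcripts, and 0 to 5 with 1 library left out. At 0.02 mg/L in that lineage it was 1, and 0 with all 18 libraries, 2 with the compared groups alone, 0 without the gut and kidney pair and 0 to 1 with 1 library left out. At 0.02 mg/L in the BPA lineage it was 1, and 0 with all 18 libraries, with no filter, with the compared groups alone, with the replicate block, by edgeR and without the gut and kidney pair, and 0 to 1 with 1 library left out. Averaged over lineages, DESeq2 called 3 at 0.002 mg/L (limma 0, and 0 to 4 with 1 library left out) and 2 at 0.02 mg/L (limma 1, 0 with all 18 libraries, 0 without the pair, 0 to 1 with 1 left out). With 1 library left out, the lineages at 0.002 mg/L gave 0 to 1 and the interaction there 0 to 2. The cyp17 difference between lineages at 0.002 mg/L changed sign, to -0.0426, without replicate 3 of the control group (range -0.0426 to 2.11). The cause was not tested. Counts in the other comparisons were 0 throughout. The counts of members under the alternatives stand here without the share of all genes called in the same fit. No excess is read from them. No clear pairing of libraries by replicate number was seen. Correlations between libraries of the same number ran from -0.20 to 0.31, and 4 of 40 were over 0.1. Between libraries of other numbers they ran from -0.25 to 0.19, and 12 of 80 were over 0.1. With so few libraries in a group, this check cannot exclude pairing. Numbers of genes called over the whole table moved too: at 0.02 mg/L in the BPA lineage from 77 to 0 with the replicate block, by edgeR or with all 18 libraries, and in the control lineage from 2409 to 13 with all 18 libraries and 12 without the gut and kidney pair. TMM scaling moved the median of all genes by less than 0.1 on the log2 scale, while all 18 libraries moved it at 0.002 mg/L in the control lineage from 0.01 to -0.15.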
